A study of Mus musculus with 8 samples.

Results

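Fc gamma receptors, TREM receptors, their ITAM adaptors and the kinase Syk were followed in bone marrow-derived macrophages (BMDMs). The 10 genes were chosen by name (Fcgr1, Fcgr2b, Fcgr3, Fcgr4, Trem1, Trem2, Treml4, Fcer1g, Tyrobp and Syk) out of 23761 genes in the expression table, and all 10 were found. The BMDMs came from 3-month-old mice, 4 per genotype, and were grown from marrow in medium conditioned by L929 fibroblasts. LysM mice were LysM Cre/Cre, with Cre recombinase at both alleles of lysozyme M (Lyz2), a gene active in macrophages and other myeloid cells. K2KO mice were LysM Cre/Cre with KLF2 flox/flox, so that both groups carried the same Cre and only K2KO could lose Klf2. The sample labels mark all 8 libraries as vehicle, which the RNA-sequencing methods do not mention. The libraries are called LysM0 to LysM3 and K2KO0 to K2KO3 after the table's columns, which do not name the mouse. Sample titles use similar names with another numbering, so a library here is not matched to the sample of the same name.

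Values are FPKM, fragment counts of a gene divided by transcript length and by the mapped fragments of the library. Summed over all genes they came to between 497253 and 551608 in the LysM libraries and between 448235 and 501965 in the K2KO libraries. Read numbers cannot be had from FPKM, but steps between low FPKM put the depth of the other libraries at 0.889 to 1.34 relative to LysM0. Here log2(FPKM + 0.1) was compared, which understates the change of genes with low FPKM, and a gene was taken as changed when limma gave a Benjamini-Hochberg adjusted p under 0.05 with an absolute log2 difference over 0.26. The fit covered the 10920 genes that averaged 1 FPKM or more. Klf2 lies on GRCm38 at chr8:72319033-72321656. Its FPKM was 44.12, 52.94, 64.71 and 72.84 in LysM0 to LysM3 and 45.46, 41.55, 59.17 and 59.3 in K2KO0 to K2KO3. The genotypes overlapped and differed by -0.18 ± 0.17 on the log2 scale (SE, n = 4 per genotype), and limma gave an adjusted p of 0.46 (exact two-sided permutation p = 0.429). The difference was -0.31 without LysM0, -0.07 without LysM3, -0.09 without K2KO1, and after correction for GC and length it was 0.04. The targeted gene was thus not measurably lower in its labelled knockout, and directions are given below for the libraries labelled K2KO. Reads from parts of Klf2 outside the floxed region would not report the deletion, and which part was floxed is not given in the sources used here. Neither this, nor the extent of the deletion, nor the genotype of the labelled columns was tested.

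Fc gamma receptors bind the constant part of IgG on coated particles. Fcgr1, Fcgr3 and Fcgr4 activate the cell through the FcR gamma chain Fcer1g, whereas Fcgr2b carries its own inhibitory motif. TREM receptors signal through Tyrobp (DAP12), and TREM2 on macrophages and microglia binds lipids, lipoproteins and cell debris. Both adaptors carry an immunoreceptor tyrosine-based activation motif (ITAM), which Src-family kinases phosphorylate and on which Syk docks to start phagocytosis and cytokine signals.

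On chromosome 1 Fcgr2b, Fcgr4, Fcgr3 and Fcer1g stand together within 276 kb, and the TREM genes Trem1, Treml4 and Trem2 span 120 kb on chromosome 17. Fcgr2b and Fcgr3, an inhibitory and an activating receptor, share most of the sequence that codes for their IgG-binding part. Over 481 aligned coding bases, from base 141 to base 621 of the 1023 coding bases of Fcgr2b, 464 were identical with Fcgr3 (96.5%). The longest identical run was 129 bases, shown first because a fragment inside it fits both genes. In Fcgr2b it covers coding bases 278 to 406 and spans an intron within chr1:170966674-170968081. In Fcgr3 it covers coding bases 263 to 391 within chr1:171054167-171057792. The 60-base window with the most differences follows for each gene, with its 7 differing bases in capitals. All lie on the minus strand of GRCm38 and come from GENCODE M21 transcripts.
Fcgr2b and Fcgr3, identical run: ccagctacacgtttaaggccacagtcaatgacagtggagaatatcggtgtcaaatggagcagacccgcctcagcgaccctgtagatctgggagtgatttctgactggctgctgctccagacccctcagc
Fcgr2b, chr1:170968159-170968218: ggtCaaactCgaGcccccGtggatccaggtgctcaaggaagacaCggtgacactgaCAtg
Fcgr3, chr1:171057870-171057929: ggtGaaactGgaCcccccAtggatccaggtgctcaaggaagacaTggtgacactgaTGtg

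Because of this shared stretch, the split of FPKM between Fcgr2b and Fcgr3 is uncertain, and their sum is given beside the single values. No other member had a copy of at least 95% identity over at least 200 bases among the annotated transcripts.

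The promoters of 4 members are shown, Fcgr1 and Fcgr4 for their spread within a genotype and Trem2 and Fcer1g because they passed the test between genotypes. They are the 250 bases before the start of the gene in RefSeq (GRCm38.p6), and 9 of the 10 members had an entry. Capitals mark matches to 3 motifs, searched on both strands. The GAS-type motif TTCNNNGAA is an element of interferon-gamma response genes, and it occurred in 7.02% of 32851 promoters and in 2 of the 9 members, Fcgr1 and Trem1. The ISRE-type motif, GAAA followed after 2 bases by another GAAA, is bound by interferon-activated complexes and occurred in 2.98% of promoters and in 1 member, Fcgr4. The PU.1-type motif GAGGAAG, which reads CTTCCTC on the other strand, is bound by the myeloid factor PU.1, and it occurred in 10.6% of promoters and in 4 members, Fcgr1, Fcgr3, Fcgr4 and Trem2. A KLF-type motif, CCACNCCC, occurred in 15.9% of promoters and in 1 member, Syk. A match is only a stretch of letters and was not tied to binding here.
Fcgr1, chr3:96293970-96294219, minus strand, one GAS-type and one PU.1-type match: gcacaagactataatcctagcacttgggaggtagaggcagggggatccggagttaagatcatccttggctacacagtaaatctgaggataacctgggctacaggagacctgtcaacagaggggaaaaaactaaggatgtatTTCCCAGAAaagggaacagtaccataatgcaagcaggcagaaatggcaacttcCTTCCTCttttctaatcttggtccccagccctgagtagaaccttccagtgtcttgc
Fcgr4, chr1:171018676-171018925, plus strand, one ISRE-type and one PU.1-type match: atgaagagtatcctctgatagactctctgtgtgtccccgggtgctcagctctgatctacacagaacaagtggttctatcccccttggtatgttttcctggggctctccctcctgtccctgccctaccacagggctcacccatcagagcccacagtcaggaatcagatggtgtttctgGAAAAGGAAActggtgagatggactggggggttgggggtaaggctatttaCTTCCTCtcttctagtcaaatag
Trem2, chr17:48346151-48346400, plus strand, one PU.1-type match: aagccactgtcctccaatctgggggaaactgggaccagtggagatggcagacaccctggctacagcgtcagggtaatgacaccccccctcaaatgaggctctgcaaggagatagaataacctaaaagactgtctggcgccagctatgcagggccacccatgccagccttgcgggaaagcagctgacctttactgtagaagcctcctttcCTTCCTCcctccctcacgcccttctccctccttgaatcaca
Fcer1g, chr1:171234350-171234599, minus strand, with no match to the 4 motifs: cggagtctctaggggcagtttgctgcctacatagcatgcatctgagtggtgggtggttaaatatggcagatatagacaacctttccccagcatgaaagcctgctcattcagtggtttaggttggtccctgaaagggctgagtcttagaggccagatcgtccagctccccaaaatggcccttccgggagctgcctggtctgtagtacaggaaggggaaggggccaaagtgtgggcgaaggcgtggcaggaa

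Of the 10 members, 8 passed the filter on low values. Fcer1g and Trem2 were lower in the libraries labelled K2KO and passed the test, whereas 18.4% of all tested genes were called (9.84% higher and 8.61% lower). None rose by this limma test, though 1 of the 6 others, Fcgr3, was higher at an unadjusted p under 0.05, and an ordinary least squares test called 0 members. The median log2 difference of the 8 was -0.16, beside 0.01 for all tested genes. In 3 of the 8, Fcer1g, Tyrobp and Trem2, the genotypes did not overlap, all with K2KO lower, beside 23.1% of all tested genes (10.2% with K2KO lower). These are bulk libraries, so fewer cells expressing a gene and less RNA per cell cannot be told apart.

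**Figure D1:**
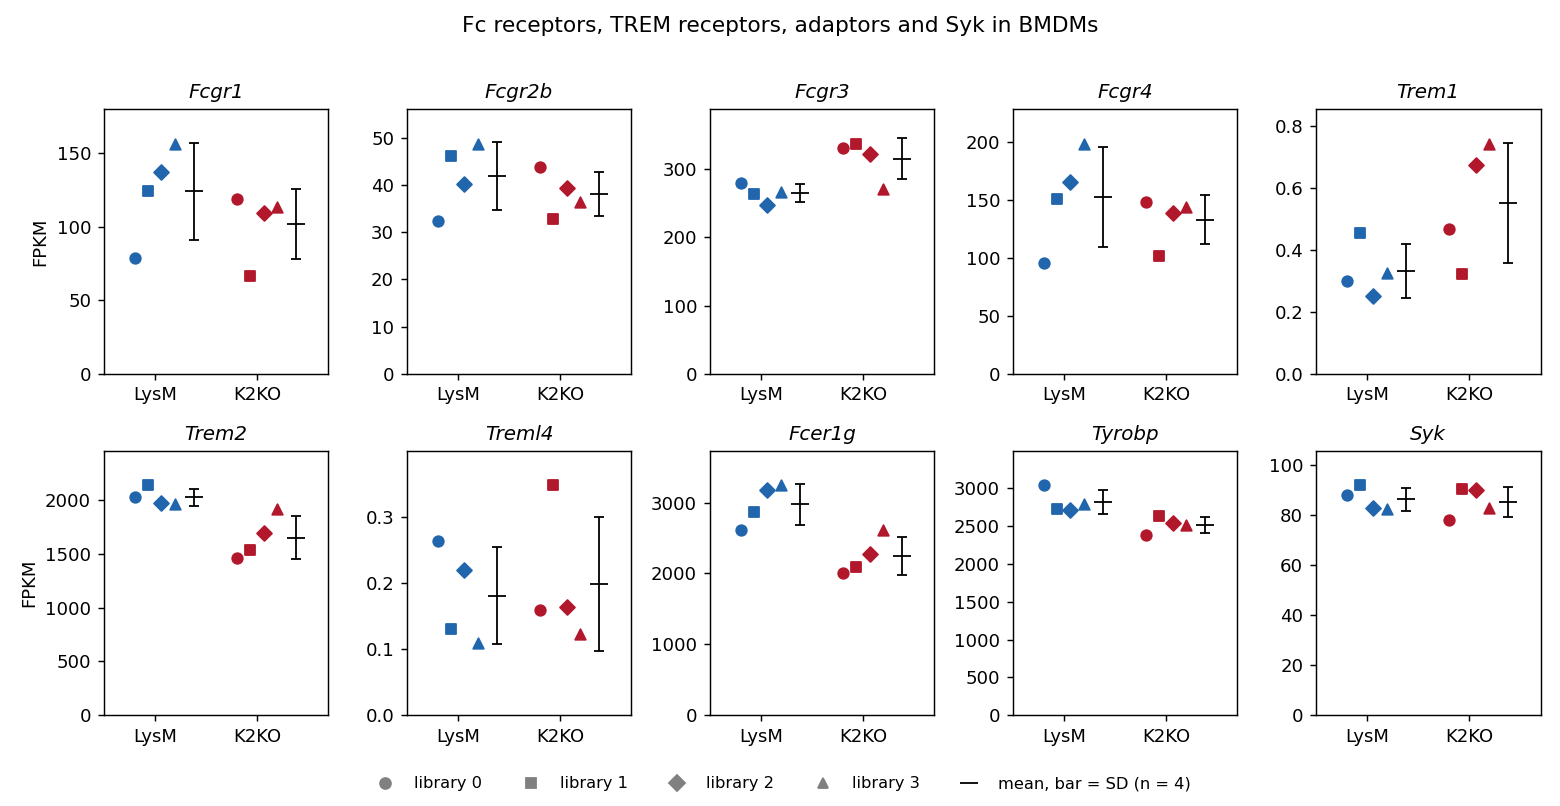
FPKM of the 10 members (y axis, from 0, scaled per panel) in each library of LysM and K2KO (x axis). Each point is a library, with a symbol for its number, and the bar gives the mean with SD of 4 libraries. Fcer1g, Tyrobp and Trem2 separate the genotypes by a narrow gap in places (Fcer1g 2616 in LysM0, 2608 in K2KO3), while Fcgr1 and Fcgr4 vary more within a genotype than between genotypes.

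Fcgr3, the low-affinity activating receptor (chr1:171051175-171059403, minus strand), had the highest FPKM of the Fc gamma receptors, subject to the uncertain division with Fcgr2b. Its FPKM was 279.5, 264.1, 247.7 and 266.5 in LysM0 to LysM3 and 330.4, 337.2, 322.3 and 271.2 in K2KO0 to K2KO3. K2KO3 lay among the LysM libraries and the other 3 K2KO libraries lay above them all. K2KO exceeded LysM by 0.25 ± 0.08 on the log2 scale (SE, 95% interval 0.07 to 0.44), and limma gave an adjusted p of 0.0582, just outside the threshold. Without K2KO3 the difference was 0.32 with a limma adjusted p of 0.00895. With quantile normalization it was 0.45 (adjusted p = 0.0292) and with upper-quartile scaling 0.29 (adjusted p = 0.0441). It did not pass without any one of the other 7 libraries (limma adjusted p between 0.0551 and 0.14), with the GC and length correction (0.0919), by ordinary least squares (0.0889) or with no filter on low values (0.131).

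Fcgr2b, the only inhibitory Fc gamma receptor (chr1:170958617-170977746, minus strand), had the lowest FPKM of the family as the authors' counting divided fragments between it and Fcgr3. Its FPKM was 32.45, 46.12, 40.21 and 48.79 in LysM0 to LysM3 and 43.85, 32.88, 39.29 and 36.48 in K2KO0 to K2KO3. The genotypes overlapped fully, with a log2 difference of -0.13 (SE 0.13, 95% interval -0.43 to 0.18) and a limma adjusted p of 0.513. Without single libraries it ranged from -0.24 (without LysM0) to -0.05 (without LysM3), with -0.08 without LysM1, -0.20 without K2KO0 and -0.06 without K2KO1. The summed FPKM of Fcgr2b and Fcgr3 still depends on how shared fragments were split, since the transcript taken for length is 3544 bases for Fcgr2b and 1347 bases for Fcgr3. It was 306.3 ± 12.5 FPKM in LysM and 353.4 ± 30.9 FPKM in K2KO (SD, n = 4). On the log2 scale the sums differed by 0.20 (exact two-sided permutation p = 0.114, where 4 against 4 allows no less than 0.0286).

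Fcgr1, the high-affinity receptor for IgG known as CD64 (chr3:96282909-96293969, minus strand), varied widely within a genotype. Its FPKM was 78.87, 124.2, 137.1 and 156.3 in LysM0 to LysM3 and 118.6, 66.59, 109.3 and 113 in K2KO0 to K2KO3. LysM0 and K2KO1 were the low libraries, and the genotypes overlapped. On the log2 scale the difference was -0.28, with a 95% interval of -0.81 to 0.26 (limma adjusted p = 0.416). It was -0.48 without LysM0, -0.15 without LysM3 and -0.08 without K2KO1. With quantile normalization it was -0.13.

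Fcgr4, an activating receptor with a preference for IgG2a and IgG2b (chr1:171018920-171029761, plus strand), had the same low libraries. Its FPKM was 95.3, 150.6, 165.4 and 198.6 in LysM0 to LysM3 and 148, 101.4, 138.9 and 144 in K2KO0 to K2KO3. Its log2 difference of -0.16 had a 95% interval of -0.64 to 0.32 (limma adjusted p = 0.601). It was -0.37 without LysM0, -0.11 without LysM2, -0.02 without LysM3 and -0.04 without K2KO1. With quantile normalization it was -0.02. An snRNA gene, Gm26110, overlaps Fcgr4 on the same strand. The intervals of Fcgr1 and Fcgr4 include differences larger than that of Fcer1g, so a difference of that size could not be detected for them with 4 libraries per genotype.

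Interferon-stimulated genes followed the same libraries as Fcgr1, Fcgr4 and Fcgr2b. In 9 of 9 such genes, a list drawn up after this pattern was seen, LysM0 was the lowest LysM library and K2KO1 the lowest K2KO library, as in these 3 receptors and in Klf2. This order held for 1425 tested genes, or 13%. Isg15, a ubiquitin-like protein induced by interferon, was at 74.2, 128.3, 163.2 and 188.2 FPKM in LysM0 to LysM3 and at 125.3, 49.3, 116 and 128.9 FPKM in K2KO0 to K2KO3. Irf7, a transcription factor of the interferon response, was at 113.9 FPKM in LysM0 and 97.84 FPKM in K2KO1, and between 184.7 and 252.9 FPKM in the other 6. By limma none of the 9 genes passed the test between genotypes, with 0 at an unadjusted p under 0.05 and 0 by ordinary least squares. Their part in the spread of the receptors was not tested. Fcgr3 did not share the pattern, being highest in LysM0 among LysM and highest in K2KO1 among K2KO. Fcgr2b was thus lowest where Fcgr3 was highest, and the part of their uncertain division of fragments in this was not tested.

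**Figure D2:**
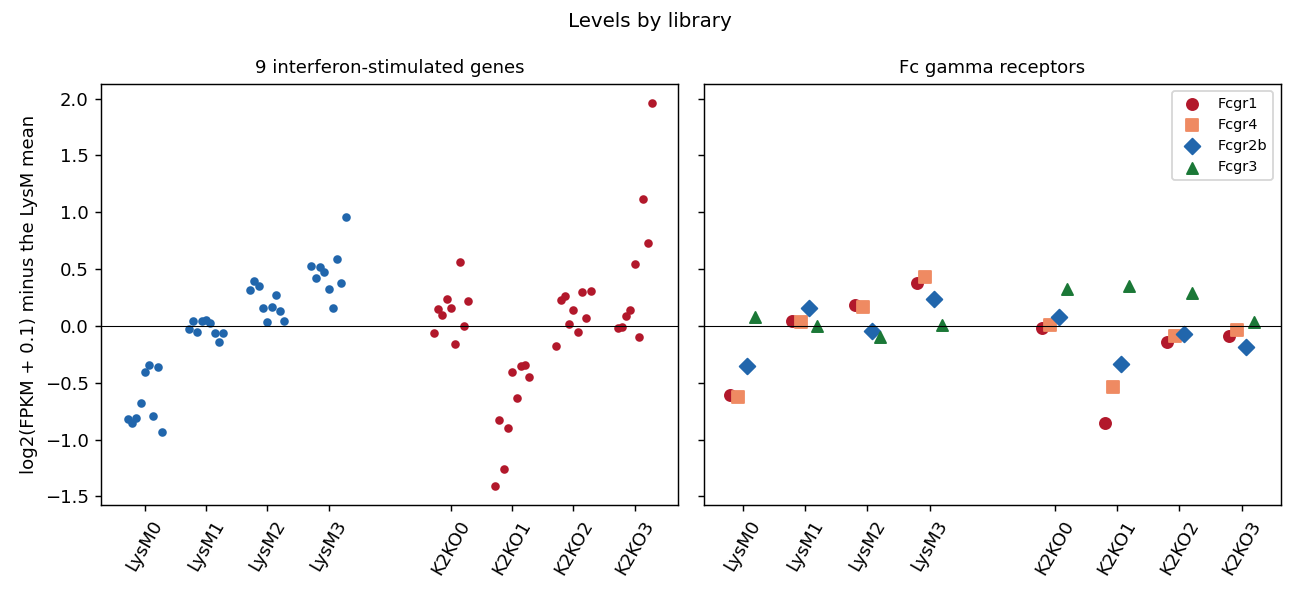
Levels of 9 interferon-stimulated genes (left, one point per gene) and of the Fc gamma receptors (right) in each library (x axis), as log2(FPKM + 0.1) minus the mean of the LysM libraries (y axis). LysM0 and K2KO1 hold the lowest points of their genotype for all 9 genes and for Fcgr1, Fcgr4 and Fcgr2b, but not for Fcgr3, which is high in 3 of the 4 K2KO libraries. The division of fragments between Fcgr2b and Fcgr3 is uncertain.

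Without both LysM0 and K2KO1, an alternative chosen after seeing the data, the log2 difference of Fcer1g was -0.44 (limma adjusted p = 0.0435) and that of Trem2 was -0.27 (adjusted p = 0.136). For Fcgr1 it was -0.29 (limma adjusted p = 0.0781) and for Fcgr4 -0.25 (adjusted p = 0.145). Taken as activating to inhibitory receptors, the ratio of the summed FPKM of Fcgr1, Fcgr3 and Fcgr4 to that of Fcgr2b was 13 ± 1.03 in LysM and 14.5 ± 0.714 in K2KO (SD, n = 4). Its ranges, 11.7 to 14 and 13.6 to 15.4, overlapped, and it carries the same uncertainty of Fcgr2b and Fcgr3.

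Trem2 (chr17:48346401-48352273, plus strand) was lower in the libraries labelled K2KO. Its FPKM was 2026, 2135, 1968 and 1957 in LysM0 to LysM3 and 1463, 1533, 1692 and 1910 in K2KO0 to K2KO3. The LysM libraries were close together, and K2KO3 came near them without overlap. On the log2 scale it was lower, at -0.30 ± 0.09 (SE, 95% interval -0.51 to -0.09), and limma gave an adjusted p of 0.0493, at the edge of the threshold. The call depended on the processing. It was kept without K2KO3 (-0.37, adjusted p = 0.00976) and lost when any one of the other 7 libraries was left out, with adjusted p between 0.0691 without LysM0 and 0.127 without LysM1. Corrected for GC content and length of transcripts, the difference was -0.09 (adjusted p = 0.4), and with quantile normalization it turned to 0.01 (adjusted p = 0.959).

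Trem1, which amplifies inflammatory responses of neutrophils and monocytes (chr17:48232768-48246924, plus strand), was near 0. Its FPKM was 0.3006, 0.4554, 0.2522 and 0.3248 in LysM0 to LysM3 and 0.4676, 0.3226, 0.674 and 0.7437 in K2KO0 to K2KO3. The genotypes overlapped, with a log2 difference of 0.56 on the log2(FPKM + 0.1) scale (exact two-sided permutation p = 0.0857). With a pseudocount of 1 the difference was 0.21. Treml4, a TREM-like receptor that binds dead cells (chr17:48264295-48275360, plus strand), was at 0.1091 to 0.2638 FPKM in LysM and 0.1233 to 0.3473 FPKM in K2KO. The difference was 0.07 (exact permutation p = 0.857) and turned negative without K2KO1, without LysM1 or without LysM3 (-0.14, -0.01 and -0.06). These 2 unadjusted tests cover the members below the filter.

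Fcer1g (chr1:171229572-171234365, minus strand) is the gamma chain on which the activating Fc receptors depend for surface expression and signaling. In the main limma fit it showed the largest change of the 8 tested members. Its FPKM was 2616, 2868, 3174 and 3245 in LysM0 to LysM3 and 2000, 2092, 2269 and 2608 in K2KO0 to K2KO3. The genotypes did not overlap, though LysM0 and K2KO3 were nearly equal. Its log2 difference of -0.41 ± 0.11 (SE, 95% interval -0.65 to -0.17) had a limma adjusted p of 0.0305. The call was kept without LysM0 (adjusted p = 0.0201) or K2KO3 (0.00908) and lost without any one of the other 6 libraries. Those limma adjusted p were 0.0697, 0.0763 and 0.092 without LysM1, LysM2 and LysM3 and 0.0745, 0.0787 and 0.0736 without K2KO0, K2KO1 and K2KO2. Corrected for GC content and length of transcripts, the difference was -0.29 (adjusted p = 0.0383), and with quantile normalization it was -0.05 (adjusted p = 0.558). With both of these settings the absolute difference of Fcgr3 was larger (0.297 and 0.446). Without LysM0 that of Fcgr1 was larger (-0.479, against -0.471 for Fcer1g).

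Tyrobp, the DAP12 adaptor of Trem2 and many other receptors (chr7:30413788-30417577, plus strand), was at 3036, 2716, 2711 and 2788 FPKM in LysM0 to LysM3 and at 2378, 2626, 2531 and 2513 FPKM in K2KO0 to K2KO3. All 4 K2KO values lay below all 4 LysM values. The difference was -0.16 ± 0.07 (SE, 95% interval -0.33 to 0.00), and limma gave an adjusted p of 0.134, so Tyrobp did not pass. Its sign depended on the scaling, being 0.17 with quantile normalization and 0.05 after the GC and length correction. Fcer1g and Tyrobp have the shortest transcripts of the 10 members, 683 and 597 bases, and Trem2 the highest GC content, 57.5%.

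Hcst (DAP10), an adaptor without an ITAM whose 3′ end lies 134 bases from that of Tyrobp, on the opposite strand, was also lower. Its FPKM was 39.05, 41.22, 38.67 and 47.96 in LysM0 to LysM3 and 32.58, 32.16, 35.52 and 33.49 in K2KO0 to K2KO3, a log2 difference of -0.31 ± 0.08 (SE, limma adjusted p = 0.026). Hcst was named after its values were seen, for its place beside Tyrobp.

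Syk (chr13:52583173-52648792, plus strand) differed little between the 8 libraries. Its FPKM was 88.16, 92.09, 83.1 and 82.44 in LysM0 to LysM3 and 78.27, 90.37, 90.26 and 82.95 in K2KO0 to K2KO3. Between genotypes the log2 difference was -0.02 (SE 0.07, limma adjusted p = 0.872), and its sign changed with the scaling and with single libraries. Its 95% interval, -0.17 to 0.14, was the narrowest of the 8 and left out a decrease of the size seen in Fcer1g.

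**Figure D3:**
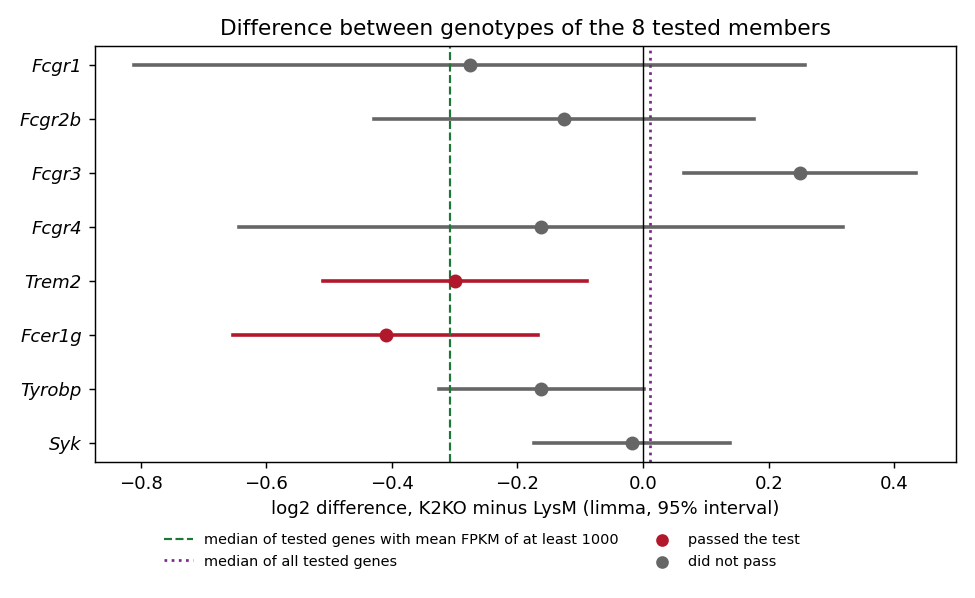
Log2 difference, K2KO minus LysM, of the 8 tested members (x axis), with points for the limma estimate, lines for its 95% interval and red for the members that passed. The dashed line marks the median of the 59 tested genes averaging 1000 FPKM or more (-0.31), near the points of Trem2 and Fcer1g, and the dotted line marks the median of all tested genes (0.01). With quantile normalization Trem2, Tyrobp and Syk change sign.

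In order of FPKM, which is per kilobase and so can be compared between genes, the LysM libraries ran from Fcer1g (2976 ± 291) and Tyrobp (2813 ± 153) to Trem2 (2021 ± 81.6), Fcgr3 (264.4 ± 13.1), Fcgr4 (152.5 ± 43.1), Fcgr1 (124.1 ± 32.9), Syk (86.5 ± 4.55) and Fcgr2b (41.9 ± 7.24), all as mean ± SD of 4. In K2KO the order was Tyrobp (2512 ± 102), Fcer1g (2242 ± 268), Trem2 (1650 ± 199), Fcgr3 (315.3 ± 30.0), Fcgr4 (133.1 ± 21.5), Fcgr1 (101.9 ± 23.8), Syk (85.5 ± 5.92) and Fcgr2b (38.1 ± 4.63). Within either genotype the libraries of Fcer1g and Tyrobp overlapped, as did those of Fcgr4 and Fcgr1, and of Fcgr1 and Syk. The steps from Tyrobp to Trem2, from Trem2 to Fcgr3, from Fcgr3 to Fcgr4 and from Syk to Fcgr2b had no overlap between libraries.

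Fcer1g ranked 13 to 17 among the 23761 listed genes across the 8 libraries, Tyrobp 11 to 21 and Trem2 22 to 31. These ranks hold only among the listed values, since genes such as Apoe and Ctsb were not listed and Ctsd was listed at 0. The ratio of Fcer1g to Tyrobp was 1.06 ± 0.144 in LysM and 0.893 ± 0.105 in K2KO (SD, n = 4), with overlapping ranges of 0.861 to 1.17 and 0.796 to 1.04. The ratio of Trem2 to Tyrobp was 0.72 ± 0.0502 and 0.657 ± 0.0772, with ranges of 0.667 to 0.786 and 0.584 to 0.76.

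The decreases of Fcer1g and Trem2 came in a class of very abundant genes of which many were lower. Of the 59 tested genes averaging 1000 FPKM or more, 27 (45.8%) were called lower and 1 (1.69%) higher, with a median log2 difference of -0.31. The median was -0.19 for the 759 genes between 100 and 1000 FPKM, -0.05 for the 4638 between 10 and 100, and 0.09 for the 5464 between 1 and 10. Set beside its class, Fcer1g (-0.41) lay below the median, Trem2 (-0.30) at it and Tyrobp (-0.16) above it. Fcgr3 (0.25) lay above the median of its class, and Fcgr1 (-0.28) and Fcgr4 (-0.16) on either side of it. With quantile normalization 6 of the abundant genes were called lower, and with the GC and length correction 11. By ordinary least squares the count was 7 and with no filter on low values 1. Without single libraries it ran from 5 (without LysM3) to 33 (without LysM0). What part of the difference of Fcer1g and Trem2 the shift of abundant genes makes up was not tested.

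**Figure D4:**
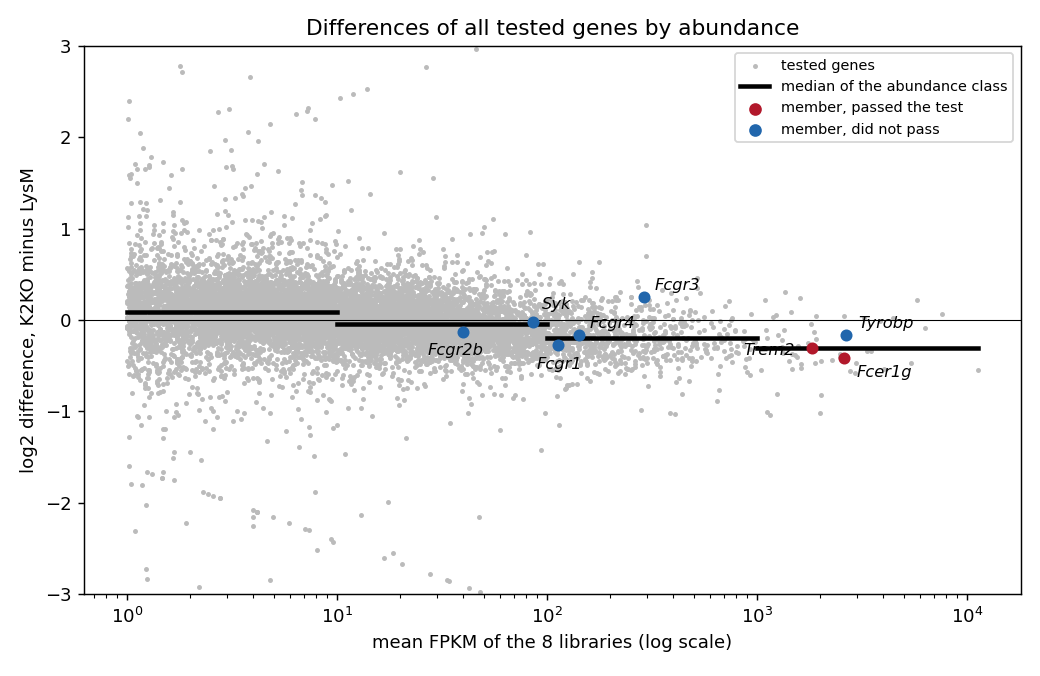
Log2 difference, K2KO minus LysM (y axis), against the mean FPKM of 8 libraries (x axis, log scale) for the tested genes, with the members coloured and black lines for the median of each abundance class. The medians fall from 0.09 to -0.31 as abundance rises, Fcer1g and Trem2 sit near the lowest line and Fcgr3 above its own, and 34 genes lie outside the plotted range of 3. With quantile normalization Trem2, Tyrobp and Syk change sign.

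Around the members, in 8 lists of genes that act with them, 28 of 108 tested genes passed (25.9%, beside 18.4% of all tested genes), 13 higher and 15 lower. The lists held 141 genes, of which 134 were listed in the table, and their median log2 difference was -0.01. The count ranged from 14 without LysM3 to 38 without K2KO3 when single libraries were left out. Some listed values do not measure expression. Ctsd, a lysosomal protease that macrophages make in large amounts, was listed at 0 in all 8 libraries, so a 0 was not read as absence.

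A list of 24 other ITAM-coupled receptors and adaptors also held Hcst, which has no ITAM. Of these, 16 were tested, of which 4 were higher, 3 lower (Hcst, Pilrb1 and Pilrb2) and 9 did not pass, with a median of 0.23. Clec4n (Dectin-2), a fungal receptor that signals through Fcer1g, was at 8.44, 8.03, 6.208 and 8.603 FPKM in LysM0 to LysM3 and at 14.43, 11.93, 12.08 and 13.01 FPKM in K2KO0 to K2KO3. It was higher by 0.72 ± 0.11 (SE, limma adjusted p = 0.00834). Cd200r4, an activating partner of Tyrobp, was higher by 0.53 ± 0.08 (adjusted p = 0.00954), from 16.37 to 18.41 FPKM in LysM to 21.57 to 27.28 FPKM in K2KO. Clec4d and Cd300lb were the other 2 that rose.

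Pilrb1 and Pilrb2, activating paired receptors that signal through Tyrobp, were lower, with log2 differences of -1.39 ± 0.25 (adjusted p = 0.012) and -1.01 ± 0.18 (adjusted p = 0.0121). Pilrb1 was at 5.703 to 13.48 FPKM in LysM and 2.509 to 4.092 FPKM in K2KO. Pilra, the inhibitory receptor of the same pair, was lower too, at -1.02 ± 0.17 (adjusted p = 0.0109). The 3 genes are at least 95% identical to each other over 565 to 1807 bases, and Pilrb1 and Pilra overlap a gene on the other strand, so their single values are uncertain. Strand use in the counting is not given in the sources used here.

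Of 30 genes for inhibitory receptors, most but not all with ITIM motifs, and for their phosphatases and adaptors, 26 were tested. Of these, 2 were higher, 7 lower and 17 did not pass (median -0.11). Dok2, an adaptor that dampens tyrosine kinase signals, was at 43.71, 51.33, 68.56 and 63.84 FPKM in LysM0 to LysM3 and at 28.73, 29.04, 27.96 and 24.85 FPKM in K2KO0 to K2KO3. Its log2 difference was -1.02 ± 0.13 (SE, limma adjusted p = 0.00528). Siglece, an inhibitory receptor for sialic acid, fell by 1.21 ± 0.22 (adjusted p = 0.0126), from 5.163 to 10.89 FPKM in LysM to 2.801 to 3.813 FPKM in K2KO. Pilra, described above, Cd72, Dok3, Pirb and Ptpn6 (SHP-1) were the other 5 that fell. Pirb has several copies of at least 95% identity.

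Cd200r1, the inhibitory receptor for CD200, was higher, by 0.78 ± 0.17 (adjusted p = 0.0193), from 15.94 to 20.07 FPKM in LysM to 21.95 to 42.03 FPKM in K2KO. Its call was lost without LysM1, LysM3, K2KO0 or K2KO2, with limma adjusted p of 0.0526, 0.0593, 0.0512 and 0.0558. Cd22, a sialic acid receptor best known from B cells, was the other that rose.

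Of 12 genes of Src-family kinases and their control, 9 were tested, of which 2 were lower and 7 did not pass (median -0.07). None was higher by limma or by ordinary least squares, with 1 higher at an unadjusted p under 0.05. Fgr, a kinase of myeloid cells, was at 3.002, 3.212, 3.806 and 3.777 FPKM in LysM0 to LysM3 and at 1.606, 2.182, 1.637 and 1.356 FPKM in K2KO0 to K2KO3. Fgr fell by 0.995 ± 0.148 on the log2 scale (SE, limma adjusted p = 0.00772).

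Of 31 genes that act downstream of Syk, 30 were tested, of which 3 were higher, 2 lower and 25 did not pass (median -0.01). The calls of this list, 5 in all, became 10 with upper-quartile scaling and 2 to 9 without single libraries. Pik3ap1 (BCAP), an adaptor that brings PI3-kinase to receptors, was at 50.96, 37.26, 37.84 and 39.93 FPKM in LysM0 to LysM3 and at 73.55, 83.82, 69.36 and 55.45 FPKM in K2KO0 to K2KO3. It was higher by 0.76 ± 0.14 (SE, limma adjusted p = 0.0126). Pik3cd, a catalytic subunit of PI3-kinase, fell by 0.43 ± 0.07 (adjusted p = 0.0105), from 30.53 to 37.66 FPKM in LysM to 24.72 to 25.67 FPKM in K2KO. Cblb, a ubiquitin ligase that restrains receptor signaling, was higher by 0.45 ± 0.10 (adjusted p = 0.0187), and without LysM1, LysM3, K2KO1 or K2KO2 it was not called (adjusted p of 0.0508, 0.0591, 0.051 and 0.0567). Sos1, an exchange factor for Ras, was higher by 0.30 ± 0.09 (adjusted p = 0.0475), a call kept in 1 of 8 fits without a library, that without K2KO3, with adjusted p up to 0.121 in the others. With quantile normalization its difference was 0.20 (adjusted p = 0.148), and with the GC and length correction 0.03 (adjusted p = 0.807). Cbl, a ubiquitin ligase related to Cblb, was the other gene that fell, with overlapping genotypes.

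Of 13 other Fc receptor genes, 4 were tested. Fcgrt, the neonatal Fc receptor that recycles IgG, was at 126.7, 155.4, 164.4 and 186.8 FPKM in LysM0 to LysM3 and at 101.6, 94.1, 99.22 and 89.98 FPKM in K2KO0 to K2KO3. All K2KO values were below all LysM values, with a log2 difference of -0.71 ± 0.11 (SE, limma adjusted p = 0.00902). Fcgrt overlaps the coding gene Rcn3 on the same strand, so its value is uncertain. Fcrl1, an Fc receptor-like gene known from B cells, was higher by 0.36 ± 0.11 (adjusted p = 0.0464), from 3.802 to 5.197 FPKM in LysM to 5.447 to 6.777 FPKM in K2KO. Its call was kept in 1 of 8 fits without a library, that without K2KO3, with adjusted p up to 0.115 in the others. Of 4 other TREM family receptors 2 were tested and neither passed by limma, with 0 at an unadjusted p under 0.05 and 0 by ordinary least squares.

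Of 10 genes for proteases that shed TREM2 and for its partners, 7 were tested and 1 passed, also by ordinary least squares. Sorl1, a sorting receptor of endosomes, was higher by 0.52 ± 0.10 (limma adjusted p = 0.0126), from 2.319 to 2.988 FPKM in LysM to 3.68 to 4.099 FPKM in K2KO, and it overlaps an antisense gene. Of 20 genes of lipid-associated macrophages, a state that in tissues depends on Trem2, 15 were tested, of which 2 were higher and 13 did not pass (median 0.07). Apoe, Gpnmb and Ctsb were not listed under these names and Ctsd was listed at 0 in all libraries, so nothing can be said of them. By limma none of the 15 tested was lower, with 0 lower at an unadjusted p under 0.05, and ordinary least squares called 0 of the 15. Fabp5, a fatty acid-binding protein, was higher by 0.47 ± 0.12 (adjusted p = 0.026, or 0.0563 with the GC and length correction), from 362.8 to 518 FPKM in LysM to 540.7 to 645 FPKM in K2KO. Ctsl, a lysosomal protease, was higher by 0.30 ± 0.09 (adjusted p = 0.0399), but by 0.11 with the GC and length correction (adjusted p = 0.408) and by 0.58 with quantile normalization (adjusted p = 0.0094). Calls of both were lost without single libraries, with adjusted p up to 0.0782 for Fabp5 (without LysM3) and 0.108 for Ctsl (without LysM3). Fabp5 has copies of at least 97.3% identity, and Ctsl shares 395 identical bases with another annotated gene, so their values are uncertain.

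**Figure D5:**
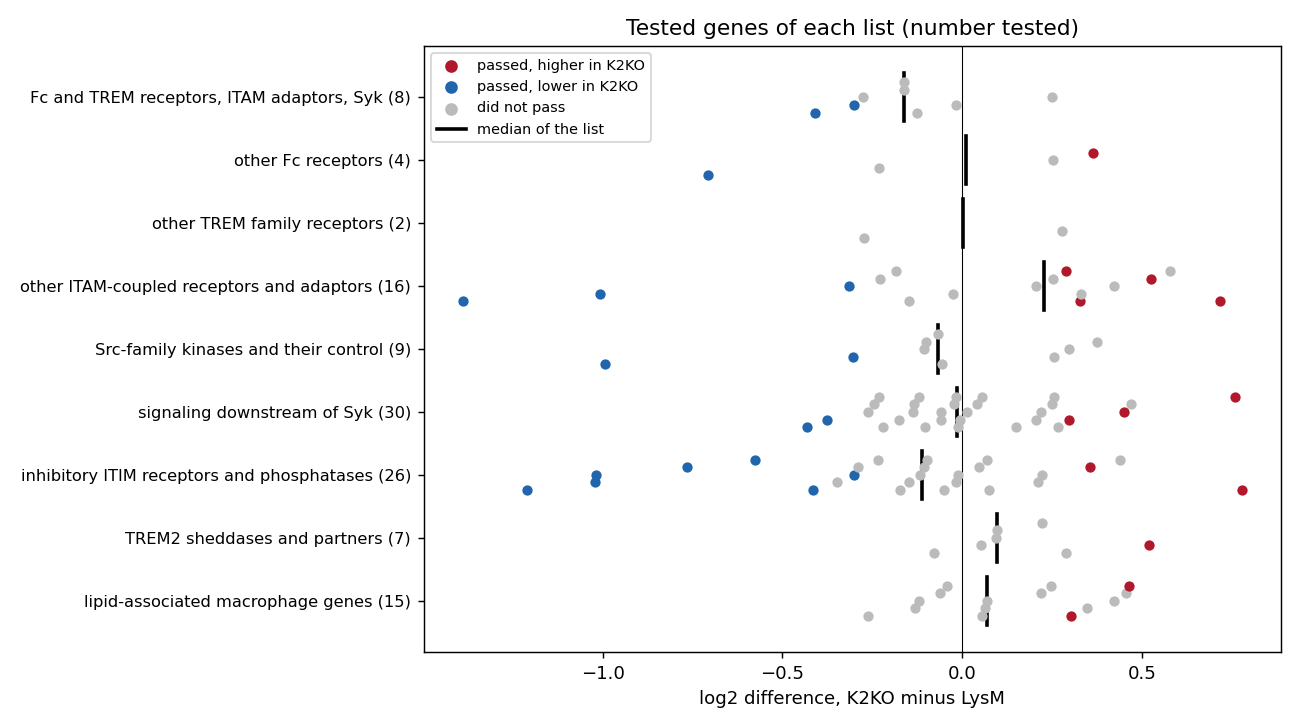
Log2 difference, K2KO minus LysM (x axis), of each tested gene in the members and 8 lists of related genes (rows, with the number tested), coloured by whether the gene passed the test, with a black line at the median. Genes that passed lie on both sides of 0 in the list of other ITAM-coupled receptors and adaptors (4 higher, 3 lower, Hcst among the latter), and 7 of the 9 that passed among inhibitory genes lie below 0.

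In the chromosome regions of the members, 154 other tested genes lay within 1 Mb of one of them, of which 3 were called higher and 26 lower. Near Tyrobp 46 were tested, with 2 higher and 12 lower. Near Fcer1g 36 were tested with 4 lower, near Trem2 18 with 4 lower, near Fcgr1 47 with 1 higher and 5 lower, and near Syk 8 with 1 lower. The 26 were counted beside 8.61% of all tested genes called lower, and the count of 29 fell to 9 with the GC and length correction, to 19 without both LysM0 and K2KO1, and to 6 without LysM3 or K2KO2.

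Markers of macrophages were high in all libraries. The 10 macrophage markers summed to 4148 to 4406 FPKM in LysM and 3937 to 4073 FPKM in K2KO, with 1 of the 9 tested called higher (Mertk) and 1 lower (Lyz2). Cd68, a lysosomal membrane protein and the most abundant of them, was at 1683 to 1942 and 1637 to 1862 FPKM, and Cd163 was under 1. Lyz2, the gene that carries Cre, was at 16.43 to 22.54 FPKM in LysM and 11.51 to 15.57 FPKM in K2KO. Mast cells and basophils, which also use Fcer1g, were marked by 6 genes summing to 0.4324 to 0.8393 FPKM in LysM and 0.8173 to 1.575 FPKM in K2KO. All 6 were under 1 in every library, with Gata2 at up to 0.3918 FPKM. Kit was at 0.1014 to 0.1773 FPKM in LysM and 0.2667 to 0.3935 FPKM in K2KO, which did not overlap. NK cells, which use Tyrobp and Fcer1g, were marked by 5 genes summing to 0.2902 to 0.5369 and 0.5165 to 1.029 FPKM, with Nkg7 the highest and Gzma at 0.

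The 9 neutrophil markers summed to 185.9 to 315.2 FPKM in LysM and 175.2 to 306.5 FPKM in K2KO. S100a9 was the highest of them (91.66 to 170.1 and 85.41 to 165.7), while Ly6g and Cxcr2 were under 1. Of the 7 tested, 1 was called, Camp, a granule peptide, which fell from 11.09 to 16.01 FPKM in LysM to 4.044 to 9.784 FPKM in K2KO (log2 difference -1.15, limma adjusted p = 0.0178). The 5 T cell markers summed to 1.783 to 2.527 FPKM in LysM and 5.188 to 5.915 FPKM in K2KO, nearly all of it Cd4, which rose (log2 difference 1.38, limma adjusted p = 0.000434), and Cd3d, Cd3e, Cd3g and Cd8a were under 1. The 5 B cell markers summed to 1.527 to 4.88 and 3.55 to 5.438 FPKM (Cd79b the highest, Cd79a up to 1.403). The 6 dendritic cell markers summed to 0.6896 to 2.661 and 1.997 to 5.013 FPKM (Ccr7 the highest, the other 5 under 1). Of these, Siglech did not overlap between genotypes, at 0.06583 to 0.2947 FPKM in LysM and 0.3391 to 0.7121 FPKM in K2KO. Platelet and erythroid markers summed to 145.1 to 355.6 and 169.4 to 368 FPKM, mostly Pf4, with Gp9 at 0.1524 to 0.386 FPKM in LysM and 0.5474 to 0.9242 FPKM in K2KO, which did not overlap, and Hba-a1 at most 1.247. Of the 3 tested, 1 was called, Ppbp, a platelet chemokine, which rose from a mean of 2.027 FPKM in LysM to 4.305 FPKM in K2KO with overlapping genotypes (log2 difference 1.07, limma adjusted p = 0.0291). The 5 fibroblast markers summed to 0.1628 to 1.31 and 0.5304 to 3.234 FPKM, with Dcn the highest at up to 1.54. The platelet and erythroid sum, mostly Pf4, was lowest in LysM0 and K2KO1, the libraries low in Fcgr1 and Fcgr4, while Ppbp was lowest in LysM2 and K2KO2. The part of other cells in the results was not tested.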

How the data were processed

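RNA-sequencing of BMDMs from 4 LysM and 4 K2KO mice was used. The authors aligned reads to mm10 and computed FPKM with Cufflinks, and deposited 1 table of FPKM with a column per library. The paper names TopHat2 and an RNeasy kit, whereas the submitters' processing notes name STAR, Cufflinks and Cuffdiff and the labels a Roche kit. Their versions are not given in the sources used here. All 8 columns were mapped to a genotype and 0 columns were left unused. Without counts, neither counting errors nor count models were possible.

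Of 23761 genes, 23645 were matched to GENCODE M21 on GRCm38. Log2(FPKM + 0.1) was compared with limma 3.58.1 (eBayes with trend) in R 4.3.3, without covariates, for genes averaging at least 1 FPKM, with Benjamini-Hochberg adjustment over all 10920 genes. Adjusted p under 0.05 with an absolute log2 difference over 0.26, the study's cutoffs, defined a call. Members under the filter were tested by exact permutation. The paper gives 4 mice per group as biological replicates. No label ties a column to a mouse or a culture, so p-values measure only the spread between these libraries. Alternatives were other pseudocounts (1 and 0.01), filters (0.1 and none) and scalings, no trend, ordinary least squares, a log2 cutoff of 1, protein-coding genes, local regression on GC content and length (span 0.3), a replicate block and single libraries left out. The procedure was tested on simulated data.

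The genes and lists were chosen with earlier results of these data known. Named are all members, Klf2, per list up to 4 called genes with the largest difference and no overlap between genotypes, and the most abundant marker of each cell type. Other called genes, Hcst and the interferon-stimulated genes were named after their values were seen. A few genes that enter the counts are not reported here by name.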

Additional observations from a re-analysis of the deposited data

How the results depend on the processing

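Over all genes, 2014 passed the test, against 483 with no filter on low values, 746 by ordinary least squares, 110 with an absolute log2 difference over 1, 917 with the GC and length correction, and 543 to 2863 with single libraries left out. Of the members, 2 passed, Fcer1g and Trem2, and the same 2 passed with no intensity trend. With upper-quartile scaling the 2 were Fcer1g and, higher in K2KO, Fcgr3, while Trem2 had an adjusted p of 0.0503 by limma. With quantile normalization 1 passed, Fcgr3, which was higher. With a pseudocount of 1 or 0.01, protein-coding genes only, the GC and length correction or without both LysM0 and K2KO1, 1 passed, Fcer1g. The count was 0 with the filter at 0.1 FPKM, no filter, ordinary least squares or the log2 cutoff of 1, and 0 to 3 without single libraries. For the lists of related genes the 28 became 10 with no filter, 17 by ordinary least squares, 5 with the log2 cutoff of 1 and 14 to 38 without single libraries. Without single libraries, calls ran from 4 to 9 among other ITAM-coupled receptors and adaptors and from 5 to 11 among inhibitory genes. They ran from 1 to 3 for Src-family kinases, 1 to 2 for other Fc receptors and 0 to 3 for lipid-associated macrophage genes. The 29 neighbouring genes became 19 with the filter at 0.1 FPKM or without both LysM0 and K2KO1, 5 with no filter, 8 by ordinary least squares, 0 with the log2 cutoff of 1, 9 with the GC and length correction and 6 to 43 without single libraries. The count over all genes rose without LysM0 (2400) or K2KO3 (2863) and fell without each of the other 6 libraries, and the cause of these shifts was not tested.

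Some members and Klf2 changed sign. Quantile normalization gave 0.168 for Tyrobp, 0.0074 for Trem2 and 0.115 for Syk, upper-quartile scaling gave 0.026 for Syk, and the GC and length correction gave 0.050 for Tyrobp and 0.041 for Klf2. Without single libraries Syk ranged from -0.045 to 0.024 and Treml4 from -0.141 to 0.209. The cause was not tested. Of the calls, 53.3% were higher in K2KO, with upper-quartile scaling 64.1%, with the GC and length correction 44.6% and with that correction and the replicate block 47.3%. The difference of the 3 ratios kept its sign without any single library.

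The numbers that end the column names were tried as a replicate block, though they do not pair the libraries. Deviations of LysM and K2KO libraries with the same number had correlations of -0.07, 0.02, 0.073 and -0.057. With the replicate block 2057 genes and 1 member, Fcer1g, passed (adjusted p = 0.0197 by limma), and Trem2 had an adjusted p of 0.0727. The replicate block with the GC and length correction gave 716 genes, 0 members, 15 genes of the lists and 5 neighbouring genes, with 0.050 for Tyrobp and 0.041 for Klf2.

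With 4 libraries per genotype and no counts, differences as large as that of Fcer1g were within the intervals of Fcgr1, Fcgr4 and Fcgr2b. Results close to the cutoffs for a call, as those of Fcer1g, Trem2 and Fcgr3, moved across them with some of these choices. FPKM near 0, as those of Trem1 and Treml4, have an unknown counting error. In 66 groups of 4 libraries, those of the members, Klf2, the named called genes and the ratios, 0 held a library apart from the others. Many of these genes were chosen because their genotypes did not overlap, so the 3.3 given by chance is no fair comparison. Other listed genes were not examined, and Clec4e was at 6.52 FPKM in K2KO0 but 2.591 to 3.114 FPKM in the rest of K2KO.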

Other observations

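Further receptors and adaptors of the lists that passed the test, named here after their values were seen, differed between genotypes without overlap. Cd72, an inhibitory coreceptor best known from B cells, was the most abundant of the changed inhibitory genes, at 664.4, 780.5, 984.5 and 903.1 FPKM in LysM0 to LysM3 and at 508.4, 361.6, 525.9 and 571.7 FPKM in K2KO0 to K2KO3. Its log2 difference was -0.77 ± 0.16 (SE, limma adjusted p = 0.0178), and it overlaps another gene on the opposite strand. Dok3, an adaptor that restrains ITAM signals, was at 60.22 to 67.89 FPKM in LysM and 40.56 to 47.19 FPKM in K2KO, a log2 difference of -0.58 ± 0.07 (limma adjusted p = 0.00386). Ptpn6 (SHP-1), the phosphatase that ITIM receptors recruit, was at 98.88 to 121.6 FPKM in LysM and 86.19 to 97.3 FPKM in K2KO, a log2 difference of -0.30 (limma adjusted p = 0.0311), and it too overlaps a gene on the opposite strand.

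Among the genes that were higher, Clec4d, a C-type lectin that forms complexes with Fcer1g, was at 332.7, 319.6, 325.8 and 277.3 FPKM in LysM0 to LysM3 and at 385.4, 382.5, 418.7 and 387.9 FPKM in K2KO0 to K2KO3. Its log2 difference was 0.33 ± 0.07 (SE, limma adjusted p = 0.0207). Cd300lb, an activating receptor that signals through Tyrobp, was higher by 0.29 ± 0.08 (limma adjusted p = 0.0415). Cd22 was at 5.604 to 6.591 FPKM in LysM and 7.462 to 8.612 FPKM in K2KO, with a log2 difference of 0.36 ± 0.07 (limma adjusted p = 0.0148), while the 5 B cell markers were at or below 5.438 FPKM in sum. The part of other cell types in these values was not tested.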
